A study of Mus musculus with 25 samples.

Results

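A set of 10 genes of the antioxidant defence were followed in the pituitaries of 25 hypogonadal mice. They are Srxn1, Txnrd1, Txn1, Prdx1, Gclc, Gclm, Slc7a11, Hmox1, Nqo1 and Nfe2l2, 10 of the 47069 genes in the deposited table, each taken as the row with its symbol (the row of highest mean where a symbol had several). The animals were of the genotype hpg/hpg, which makes no gonadotropin-releasing hormone (GnRH), so the controls lack it as well. The groups were 6 GnRH females, 5 placebo females, 8 GnRH males and 6 placebo males. GnRH animals received 1 µg of the hormone into the abdominal cavity each day for 10 days and placebo animals received saline, and each pituitary was frozen 1 h after the last dose. The age of the animals is not given in the sources used here. RNA came from the whole gland, 1 library per animal, and animals are called by the numbers 1 to 25 of the labels.

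The values are regularized log2 values that the authors made, on 1 scale for all libraries, with each gene drawn in towards its own mean. A difference is therefore a log2 difference on that scale and understates the change of genes with few reads. All 10 genes passed the filter on low values, a mean of at least 3, with which 19141 genes were tested. The depth of the libraries is unknown, since no counts were used here. Correlations between libraries lay between 0.9925 and 0.9985 and library medians between 8.093 and 8.13. Hormone genes of the gland were present in every library, with the mean of the growth hormone cell markers Gh, Ghrhr and Pou1f1 between 15.42 and 15.93, and no listed marker of any cell type was at 0 in all libraries. In whole glands, fewer cells of a type and less RNA per cell cannot be told apart.

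NRF2, encoded by Nfe2l2, is the main transcription factor of the oxidative stress response. In resting cells KEAP1 holds it for ubiquitination and breakdown. When oxidants or electrophiles modify KEAP1, NRF2 accumulates, pairs with a small MAF protein and binds antioxidant response elements in its target genes. The other 9 genes are textbook targets of NRF2 and serve the thioredoxin and peroxiredoxin system, the making of glutathione, and the removal of haem and quinones. Sulfiredoxin, encoded by Srxn1, restores peroxiredoxins whose active cysteine has been overoxidized to sulfinic acid. Its gene is also known as a target of the AP-1 factors, dimers of FOS, JUN and ATF proteins that signals of the cell surface induce.

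Srxn1 lies at chr2:152105516-152111376 on the plus strand of GRCm38, the assembly also called mm10, and no other annotated gene overlaps it. Both motifs can be read in the bases before its start, so the window is printed together with those of Prdx1, which encodes a substrate of sulfiredoxin, and Gclm. Each window is the plus strand from RefSeq for GRCm38.p6, from 250 bases before the RefSeq start and ended before the first base that the annotation places in the gene. They are chr2:152105274-152105515 for Srxn1, chr4:116685349-116685543 for Prdx1 and chr3:122245307-122245556 for Gclm. Capitals mark matches to the antioxidant response element core or to the AP-1 site.
Srxn1: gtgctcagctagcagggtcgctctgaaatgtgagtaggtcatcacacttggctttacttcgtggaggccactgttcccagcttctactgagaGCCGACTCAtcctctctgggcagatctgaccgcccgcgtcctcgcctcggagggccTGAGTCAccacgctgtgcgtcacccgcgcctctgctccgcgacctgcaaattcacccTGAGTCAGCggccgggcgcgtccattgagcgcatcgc
Prdx1: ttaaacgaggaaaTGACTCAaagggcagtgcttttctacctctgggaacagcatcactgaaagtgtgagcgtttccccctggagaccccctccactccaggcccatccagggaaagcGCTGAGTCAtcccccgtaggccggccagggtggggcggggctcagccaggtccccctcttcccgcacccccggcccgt
Gclm: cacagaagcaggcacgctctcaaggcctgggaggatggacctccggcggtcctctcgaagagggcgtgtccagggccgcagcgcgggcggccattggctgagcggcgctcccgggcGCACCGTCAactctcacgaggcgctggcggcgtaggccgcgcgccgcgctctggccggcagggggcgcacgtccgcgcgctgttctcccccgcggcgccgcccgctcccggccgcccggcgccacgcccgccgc
The core was searched as TGACNNNGC or TGAGNNNGC and the AP-1 site as TGANTCA, on both strands. The 2 motifs can overlap, since TGAGTCAGC holds both.

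The Srxn1 window held 2 core matches, which begin 158 and 45 bases before the RefSeq start, and 2 AP-1 matches, at 102 and 45 bases before it. The match at 45 bases was TGAGTCAGC, in which both motifs overlap. Prdx1 had the same overlap on the other strand, with AP-1 matches at 237 and 131 bases and a core match at 133 bases. Gclm had a core match at 134 bases and no AP-1 match. Of the 8 genes with a RefSeq window, Txnrd1, Nfe2l2 and Slc7a11 also held the core, Txnrd1 in 1 of its 3 windows, and Txn1 and Nqo1 held no match to either motif. Over all 32817 promoter windows, 23 percent held the core, 6.75 percent the AP-1 site and 0.707 percent both in overlap. No window of the 8 genes held the cyclic AMP response element TGACGTCA, which 1.55 percent of all windows held. These matches are descriptions of letters, and binding was not measured.

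Srxn1 was chosen by its measured difference between GnRH and placebo males, and the other 9 genes were added for their known roles with the results in view. Male values of the 10 genes are therefore given without a test, and the females are the animals in which it could be tested. In GnRH females Srxn1 had 12.23, 11.93, 13.14, 12.42, 11.67 and 12.46 in animals 6 to 11 in turn, against 11.76, 11.81, 11.01, 11.38 and 11.44 in placebo females 1 to 5. Of the GnRH females, 5 of 6 lay above every placebo female, and animal 10 lay inside the placebo range. The mean was 12.31 ± 0.51 in GnRH females (SD, n = 6) and 11.48 ± 0.32 in placebo females (SD, n = 5). The difference was 0.83 with a standard error of 0.26 and a 95 percent interval of 0.29 to 1.37, a 1.78-fold higher level on this scale. It did not pass the threshold of 0.05 after Benjamini-Hochberg adjustment over all genes tested (limma, adjusted p = 0.279). An exact two-sided permutation test of these 11 females alone gave p = 0.013 before any adjustment, where 0.00216 is the smallest value it can give.

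In GnRH males Srxn1 had 13.19, 12.01, 12.98 and 13.20 in animals 18 to 21 and 11.92, 12.08, 11.76 and 12.07 in animals 22 to 25. The placebo males 12 to 17 had 11.54, 10.67, 10.91, 11.63, 11.45 and 11.57. All 8 GnRH males lay above every placebo male, and animals 18, 20 and 21 stood apart from the other 5, with no value between 12.08 and 12.98. The mean was 12.40 ± 0.61 in GnRH males (SD, n = 8) and 11.29 ± 0.40 in placebo males (SD, n = 6), a difference of 1.11 with a standard error of 0.24. This was the value that chose the gene, and it ranked 15 by size among the 19141 genes. The difference was 0.84 without animals 18 and 21, and between 0.98 and 1.20 when any 1 animal was left out. The GnRH difference in males minus that in females was 0.28 with a standard error of 0.35, and it was not tested.

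Ordered by level, GnRH males came first, then GnRH females, placebo females and placebo males. Neighbours of the same treatment differed by 0.090 and 0.19, less than the SD of either sex. The step between GnRH females and placebo females, 0.83, exceeded the larger SD of 0.51.

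**Figure D1:**
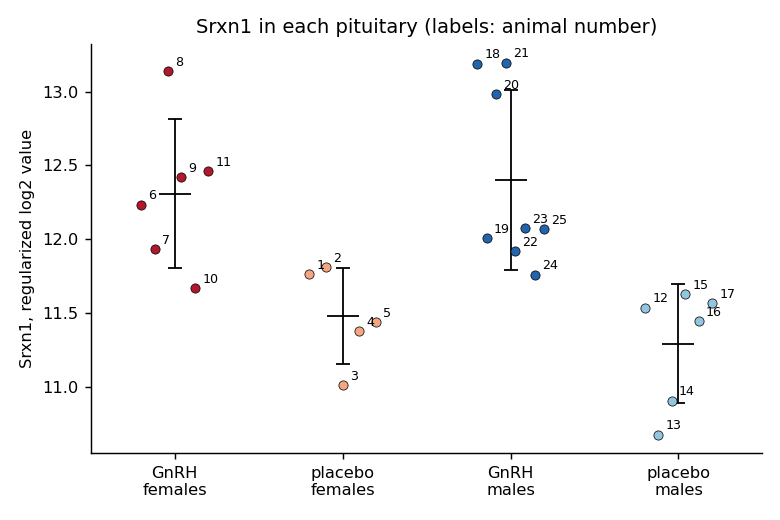
Srxn1 as regularized log2 value (vertical axis) in each pituitary of the 4 groups (horizontal axis); points are animals with their numbers, and bars are the group mean ± SD. All 8 GnRH males lie above every placebo male, 5 of 6 GnRH females lie above every placebo female, and GnRH animals 8, 18, 20 and 21 are the highest, between 12.98 and 13.20.

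Several marker lists also had differences between GnRH and placebo animals, though no list mean was tested for them. Of 5 gonadotrope markers, genes of the cells that carry the GnRH receptor, 4 had a positive and 1 a negative difference in each sex. The threshold was passed by 1 in females and 2 in males (limma), beside 0.0993 and 0.496 percent of all genes. The mean of the 5 markers, Fshb, Lhb, Cga, Gnrhr and Nr5a1, lay between 11.27 and 11.60 in GnRH females against 10.49 and 10.93 in placebo females. It lay between 11.18 and 11.70 in GnRH males against 10.45 and 10.86 in placebo males, so the groups did not overlap in either sex. The mean of 25 immediate early genes, which cells switch on within minutes of a signal, lay between 9.03 and 9.54 in GnRH females against 8.82 and 9.29 in placebo females, and between 9.38 and 10.64 in GnRH males against 8.98 and 9.48 in placebo males, with overlap in both sexes. Of these 25 genes, 25 in males and 20 in females had a positive difference, with medians of 0.51 and 0.12. In males 3 and in females 0 passed (limma), beside 0.496 and 0.0993 percent of all genes. At an unadjusted p under 0.05 (limma) there were 16 and 7, beside 6.42 and 9.57 percent of all genes. All 6 endothelial markers had positive differences in both sexes, with medians of 0.18 in females and 0.23 in males. Of them 0 passed in females and 1 in males (limma), beside 0.0993 and 0.496 percent of all genes. The part of these cells or signals in the Srxn1 values was not tested.

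None of the 10 genes passed the threshold in females, where 19 of 19141 genes did, 0.0993 percent. At an unadjusted p under 0.05 there were 4 of 10, namely Srxn1, Gclc, Gclm and Txn1, against 9.57 percent of all genes. The median difference over the 10 was 0.019 in females, with 7 positive, beside 0.00025 over all genes. For males no count against the threshold is given, since that comparison chose Srxn1. The median over the 10 in males was 0.0052, with 5 positive.

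The thioredoxin and peroxiredoxin genes work next to sulfiredoxin. Peroxiredoxin 1, encoded by Prdx1 (chr4:116685544-116700822, plus strand), removes hydrogen peroxide. Its mean was 11.46 ± 0.14 in GnRH females and 11.45 ± 0.05 in placebo females (SD, n = 6 and 5), a difference of 0.0046 with a 95 percent interval of -0.10 to 0.11 and adjusted p = 0.983 (limma). In males it was 11.45 ± 0.05 with GnRH and 11.47 ± 0.06 with placebo (SD, n = 8 and 6). All 4 groups overlapped.

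Thioredoxin, encoded by Txn1 (chr4:57943373-57956411, minus strand), passes electrons to the peroxiredoxins. In GnRH females it had 9.99, 10.10, 9.93, 9.82, 9.99 and 9.87, against 9.78, 9.89, 9.89, 9.92 and 9.56 in placebo females. Of the GnRH females, 4 of 6 lay above every placebo female, and the lowest placebo value came from animal 5. The difference was 0.14 with a standard error of 0.062 and did not pass (limma, adjusted p = 0.470). In males the difference was 0.034 with a standard error of 0.055. Thioredoxin reductase 1, encoded by Txnrd1 (chr10:82833951-82897712, plus strand), recharges thioredoxin with electrons of NADPH. Its mean was 10.56 ± 0.22 in GnRH females and 10.62 ± 0.05 in placebo females (SD, n = 6 and 5), a difference of -0.061 (limma, adjusted p = 0.828), and GnRH females spread from 10.29 in animal 10 to 10.85 in animal 9. In males the difference was -0.049 with a standard error of 0.072.

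Glutathione is made from glutamate and cysteine by an enzyme whose catalytic subunit is encoded by Gclc and whose modifier subunit is encoded by Gclm. Gclc (chr9:77754535-77794485, plus strand) had 10.72, 10.68, 10.82, 10.81, 10.56 and 10.77 in GnRH females, against 10.52, 10.50, 10.50, 10.57 and 10.53 in placebo females. As with Srxn1, 5 of 6 GnRH females lay above every placebo female and animal 10 did not. The difference was 0.20 with a standard error of 0.051 and a 95 percent interval of 0.10 to 0.31, and it did not pass (limma, adjusted p = 0.135). The exact permutation p of the 11 females was 0.00649, unadjusted. Without animal 10 the difference was 0.24 and passed, with adjusted p = 0.0229 (limma). Leaving out animal 10 also raised the count past the threshold in females over all genes from 19 to 67. In males Gclc had 10.61 ± 0.05 with GnRH and 10.53 ± 0.10 with placebo (SD, n = 8 and 6), a difference of 0.087 with a standard error of 0.046. All 8 GnRH males lay above the placebo mean, but only 1 lay above the highest placebo male.

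Gclm (chr3:122245557-122270732, plus strand) went the other way, with 8.88, 8.80, 8.95, 8.84, 8.82 and 8.86 in GnRH females against 8.91, 8.91, 9.09, 9.02 and 9.07 in placebo females. Of the GnRH females, 5 of 6 lay below every placebo female. The difference was -0.14 with a standard error of 0.057 and did not pass (limma, adjusted p = 0.452), with an unadjusted exact permutation p of 0.0152. In males it was -0.078 with a standard error of 0.051. The 2 subunits of the enzyme had differences of opposite sign in each sex. Slc7a11 (chr3:49892526-50443614, minus strand) encodes the cystine carrier that feeds this path. It ran from 6.31 to 7.06 in GnRH females, with a median of 6.60, against 6.49 to 6.74 in placebo females, with a median of 6.65, and the difference was 0.028 (limma, adjusted p = 0.941). In males the difference was 0.020 with a standard error of 0.084 and changed sign with 1 animal left out (-0.0086 to 0.045).

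Hmox1 and Nqo1 are genes commonly used to read NRF2 activity. Haem oxygenase 1, encoded by Hmox1 (chr8:75093621-75100589, plus strand), breaks haem down to biliverdin. It had 6.92, 6.74, 6.76, 6.68, 6.75 and 6.80 in GnRH females, against 6.73, 6.54, 6.63, 6.70 and 6.97 in placebo females. The groups overlapped throughout, with a difference of 0.058 (limma, adjusted p = 0.832), and in males the difference was -0.0096 with a standard error of 0.071 and changed sign with 1 animal left out (-0.067 to 0.018). Macrophages are rich in Hmox1, and the mean of 8 macrophage markers lay between 7.72 and 7.99 in GnRH females against 7.56 and 7.97 in placebo females. In males it lay between 7.54 and 7.83 with GnRH against 7.52 and 7.82 with placebo. The quinone reductase gene Nqo1 (chr8:107388225-107403206, minus strand) had 9.75, 9.58, 9.37, 9.28, 9.58 and 9.35 in GnRH females, against 9.66, 9.79, 9.73, 9.35 and 9.36 in placebo females. Its values overlapped, with a difference of -0.092 and a 95 percent interval of -0.30 to 0.12 (limma, adjusted p = 0.795). In males the Nqo1 difference was -0.11 with a standard error of 0.092, so neither of these genes had a positive difference in both sexes.

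Nfe2l2 itself (chr2:75675513-75704641, minus strand) had a difference of 0.010 in females, with a 95 percent interval of -0.11 to 0.13 (limma, adjusted p = 0.965). GnRH females 8 and 9 were the highest of all animals, at 10.82 and 10.94, and GnRH female 10 was among the lowest, at 10.52. GnRH males had 10.67, 10.61, 10.73 and 10.65 in animals 18 to 21 and 10.62, 10.67, 10.65 and 10.67 in animals 22 to 25, against 10.61, 10.57, 10.47, 10.61, 10.50 and 10.59 in placebo males 12 to 17. All 8 GnRH males lay above every placebo male, with means of 10.66 ± 0.04 and 10.56 ± 0.06 (SD, n = 8 GnRH and 6 placebo) and a difference of 0.10 with a standard error of 0.052. In males 2 of the 10 genes, Srxn1 and Nfe2l2, had groups without overlap, where 0.402 percent of all genes did, and nothing is read from this count because the male values chose Srxn1 and the other genes were added with them in view. In females 0 of 10 had groups without overlap, where 0.768 percent of all genes did. For Nfe2l2 the lowest GnRH male, at 10.614, was close to the highest placebo male, at 10.609. NRF2 is regulated chiefly as a protein, which these data do not measure.

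Gene models on the other strand or inside the gene overlap Txnrd1, Gclm, Nfe2l2 and Slc7a11. Whether the counting used strand is not given in the sources used here, and models on the same strand also overlap each of these genes. Their values may therefore hold reads of those models or lack reads shared with them. No annotated gene overlaps the other 6.

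**Figure D2:**
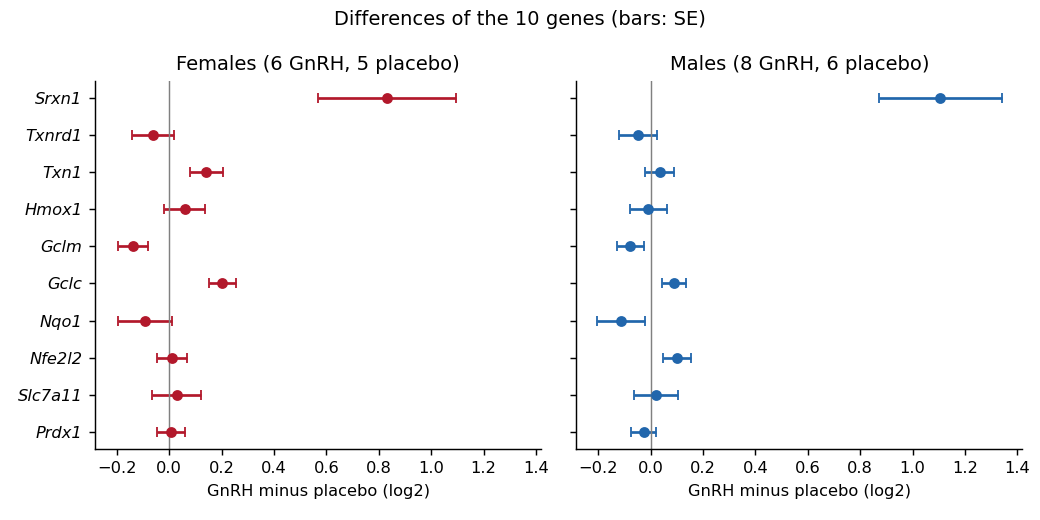
Differences between GnRH and placebo animals (horizontal axis, log2) of the 10 genes in females (left) and males (right); points are the fitted differences and bars their standard errors. Srxn1 stands at 0.83 and 1.11, while the other 9 lie between -0.14 and 0.20 in both sexes.

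**Figure D3:**
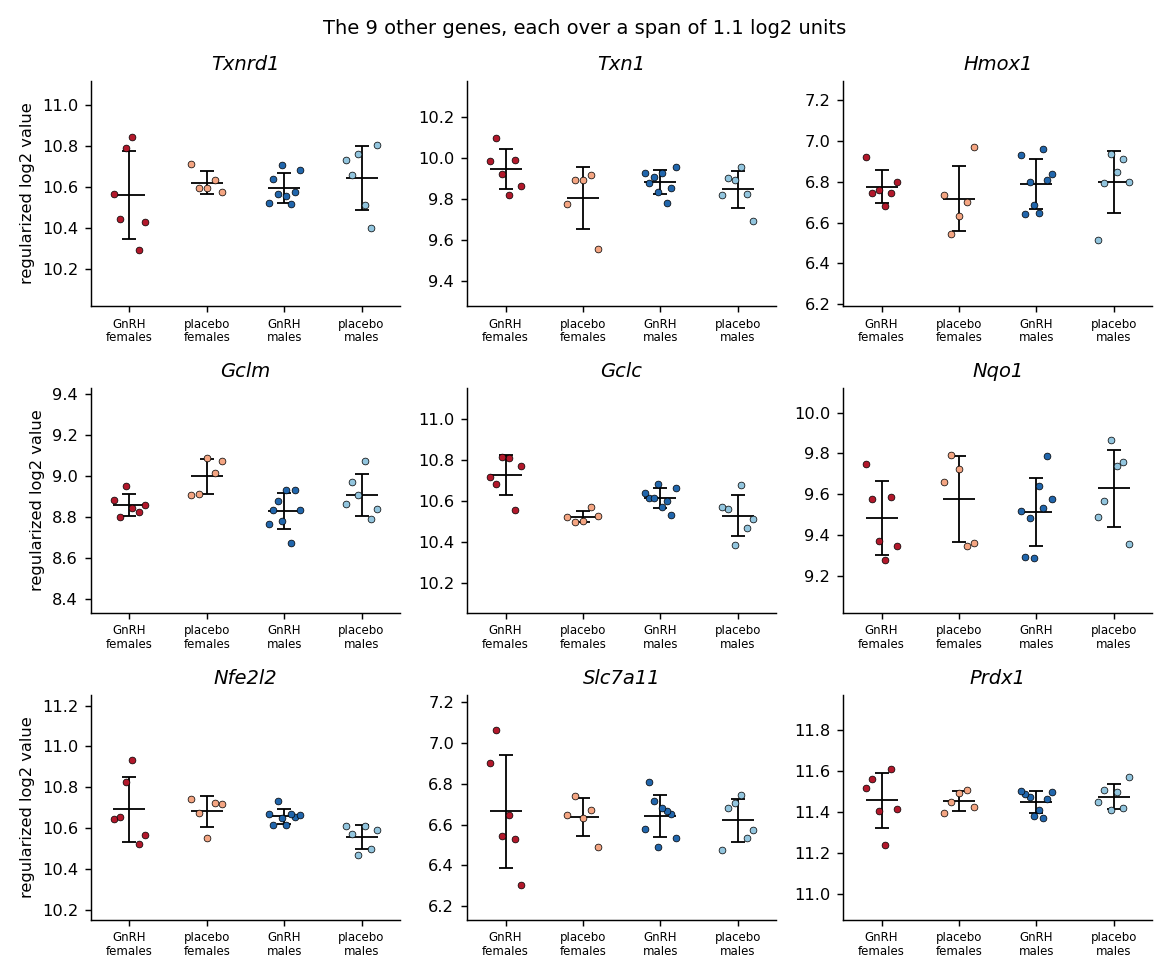
The 9 other genes as regularized log2 values (vertical axes, each spanning 1.1 log2 units) in the 4 groups; points are animals and bars the group mean ± SD. The GnRH and placebo groups overlap in every panel except Nfe2l2 in males, and Gclc and Gclm show 5 of 6 GnRH females outside the placebo range on opposite sides.

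Sex was compared within each treatment for the 9 genes other than Srxn1. None passed within placebo or within GnRH, where 0.047 and 0.0522 percent of all genes did. Nfe2l2 in placebo males was 0.12 lower than in placebo females (limma, adjusted p = 0.999), and Gclc in GnRH males was 0.11 lower than in GnRH females (limma, adjusted p = 0.830). Each of these was the only 1 of the 9 at an unadjusted p under 0.05 in its comparison, where 3.07 percent of all genes within placebo and 5.53 percent within GnRH were.

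The wider pathway was read from 61 genes in 4 lists, all of which passed the filter. The first list holds 10 genes that control NRF2: its sensor Keap1, the ligase partners Cul3 and Rbx1, the small MAF partners Maff, Mafg and Mafk, the competitor Bach1, and Nfe2l1, Sqstm1 and Dpp3. The second holds 22 other NRF2 targets in glutathione, NADPH, conjugation, export and iron storage, the third 17 peroxidases, dismutases and their partners, and the fourth 12 genes of the ATF4 stress response, which shares Slc7a11 with NRF2. None of the 61 passed the threshold in either direction in females or in males, where 0.0993 and 0.496 percent of all genes did. At an unadjusted p under 0.05 (limma) there were 11 in females and 4 in males, beside 9.57 and 6.42 percent of all genes. The median differences in females were 0.015, 0.093, 0.060 and 0.030 in the order of the lists, and in males 0.030, 0.011, 0.019 and -0.054, beside 0.00025 in females and -0.0022 in males over all genes.

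In the control list the small MAF genes came first by p in females. Maff had 6.77 in GnRH females and 6.37 in placebo females, a difference of 0.39 with a standard error of 0.19 (limma, adjusted p = 0.522). In males Maff differed by 0.59 (limma, adjusted p = 0.155). Mafg differed by 0.15 in females and 0.24 in males (limma, adjusted p = 0.505 and 0.114), and Mafk by 0.16 in females and 0.040 in males (limma, adjusted p = 0.532 and 0.999). None of the 3 passed in either sex.

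Among the other targets, Gstm1, a glutathione transferase, differed by 0.19 in females, Ephx1, an epoxide hydrolase, by 0.18, and Ftl1, the ferritin light chain, by 0.14 (limma, adjusted p = 0.355, 0.418 and 0.467). In males these were 0.099, 0.00084 and 0.088. Of the peroxide and superoxide genes, Sod3, the extracellular superoxide dismutase, differed by 0.23 in females, the glutaredoxin gene Glrx by 0.18 and the cytosolic dismutase gene Sod1 by 0.12 (limma, adjusted p = 0.265, 0.398 and 0.638), and in males by 0.025, -0.010 and 0.016. In the ATF4 list, the stress protein gene Nupr1 differed by 0.33 in females, the amino acid carrier gene Slc7a5 by 0.21 and Atf4 itself by 0.17 (limma, adjusted p = 0.286, 0.431 and 0.455), and in males by 0.13, 0.014 and 0.080. All 9 of these genes, picked by their p in females, had positive differences there and none passed. Over the whole lists, in the same order, 7 of 22, 5 of 17 and 5 of 12 genes had negative differences in females.

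**Figure D4:**
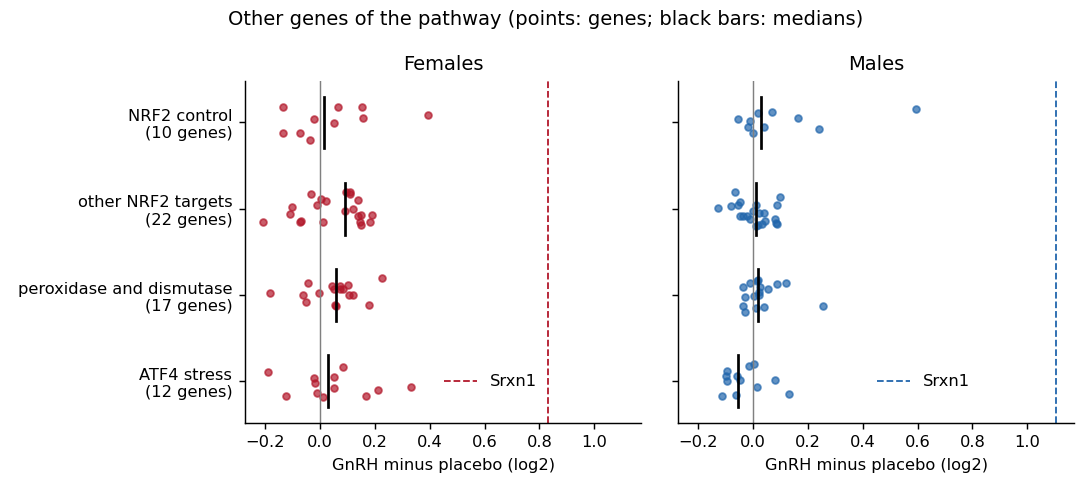
Differences between GnRH and placebo animals (horizontal axis, log2) of the 61 other pathway genes by list (vertical axis) in females (left) and males (right); points are genes, black bars are list medians and the dashed line is Srxn1. Every gene of the 4 lists lies below Srxn1 in both sexes, and the highest is Maff, at 0.39 and 0.59.

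Srxn1 varied widely among animals of the same group, so its variation was compared with that of the other genes after the group means were taken out. Animal 8 stood 0.83 above the mean of GnRH females and animal 21 stood 0.80 above that of GnRH males, the 2 largest deviations. Of 19140 other genes, 109 varied with Srxn1 (limma, adjusted p under 0.05), 0.569 percent, with 102 in the same direction and 7 in the opposite one. This count rested on a few animals: it was 47 without animal 18, 38 without animal 21, 50 without animal 24, 68 without animal 10, 167 without animal 2, and 4 without both 18 and 21. None of the 9 other genes was among the 109, and 2 of the 9 were at an unadjusted p under 0.05, beside 11.3 percent of all genes.

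Those 2 were Gclc and Nfe2l2. Over 25 animals the deviations of Gclc correlated with those of Srxn1 at Pearson r = 0.55 (permutation p = 0.00504) and Spearman rho = 0.54 (permutation p = 0.00932), but its slope did not pass over all genes (limma, adjusted p = 0.355). Without the 2 animals farthest out in Srxn1, r was 0.47. Nfe2l2 had r = 0.47 (permutation p = 0.0143) and rho = 0.53 (permutation p = 0.00669), with adjusted p = 0.403 (limma), and r was 0.44 without those 2 animals. Txnrd1 had r = 0.28 (permutation p = 0.201) and Hmox1 had r = -0.022 (permutation p = 0.917). The other 5 had negative r, at -0.16 for Gclm, -0.20 for Txn1, -0.27 for Prdx1, -0.29 for Slc7a11 and -0.35 for Nqo1, with permutation p of 0.463, 0.302, 0.229, 0.210 and 0.0936. Over all genes the quartiles of r were -0.20 and 0.20.

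Variation among the 10 genes was mixed. Of their 45 pairs, 22 had a positive r, and the median was -0.017. An unadjusted permutation p of r under 0.05 was found for 9 of the 45. The share over pairs of other genes was not computed, so nothing is read from this count. The highest r was between Txnrd1 and Nfe2l2, at 0.66 (permutation p = 0.0111), with rho = 0.41 (permutation p = 0.0878) and r = 0.44 without the 2 animals farthest out in Txnrd1. Gclc and Nfe2l2 followed, with r = 0.63 (permutation p = 0.00379), rho = 0.61 (permutation p = 0.00483) and r = 0.55 without the 2 animals farthest out in Gclc. The lowest r was between Nfe2l2 and Prdx1, at -0.51 (permutation p = 0.0999), with rho = -0.21 (permutation p = 0.387), and it rested on the 2 animals farthest out in Nfe2l2, without which r was -0.0038. Next to it stood Gclc and Nqo1, with r = -0.51 (permutation p = 0.0142), rho = -0.60 (permutation p = 0.00286) and r = -0.68 without the 2 animals farthest out in Gclc. These pairs were picked for their r, and their p-values are unadjusted. All pairs share the same 25 libraries.

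The mean of the 10 control genes had r = 0.79 and rho = 0.75 with Srxn1 over the 25 deviations, given as a description, with 0.83 in the GnRH animals alone and 0.68 in the placebo animals alone. Of the 10, only Maff passed over all genes (limma, r = 0.72, adjusted p = 0.0122), where 0.569 percent of all genes did. Maff did not pass without animal 18 (limma, adjusted p = 0.0550) or 21 (limma, adjusted p = 0.0894). Bach1, which competes with NRF2 for its elements, had r = 0.65 and missed the threshold (limma, adjusted p = 0.0609), a gene picked after its value was seen. Of the 10 genes 7 had a positive r, and Keap1, Dpp3 and Rbx1 had -0.32, -0.21 and -0.19. The median r over the 10 genes was 0.28, beside -0.0026 over all genes. The list holds partners of NRF2 as well as its sensor and competitor, so its mean is no measure of NRF2 activity. Without Maff the list mean had r = 0.69, and 0.19 in the placebo animals alone. The mean of the 22 other targets had r = 0.015, that of the peroxidase and dismutase genes -0.32 and that of the ATF4 genes -0.33. None of these 51 genes varied with Srxn1 past the threshold (limma), where 0.569 percent of all genes did.

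Atf3, the stress-induced transcription factor that the series is about and a partner of JUN in AP-1 type dimers, had r = 0.63 with Srxn1 (permutation p = 0.00618) and rho = 0.57 (permutation p = 0.0107), with adjusted p = 0.0534 (limma), and r was 0.53 without the 2 farthest animals. In the 14 GnRH animals alone r was 0.72, and in the 11 placebo animals alone it was 0.0090. The mean of the 25 immediate early genes, which include Atf3, had r = 0.61 and rho = 0.48, with 0.81 in the GnRH animals and -0.18 in the placebo animals. Of the 25, 23 had a positive r, and 7 varied with Srxn1 past the threshold (limma), beside 0.569 percent of all genes. These were Fosl1, Fosl2, Egr2, Nr4a3, Zfp36, Klf4 and Srf, named because they passed, with r between 0.65 and 0.76. Over all genes the count past the threshold fell from 109 to 4 without GnRH males 18 and 21. Fosl1 and Fosl2 encode FOS-type subunits of AP-1, whereas Fos, Fosb, Jun, Junb, Jund and Atf3, also in this list, did not pass. Whether the GnRH and placebo animals differ in these correlations was not tested.

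The genes whose deviations were most like those of Srxn1 were Cdkn1a, with r = 0.87, Vgf and Homer1, each with 0.86, Tpm4, with 0.83, and Ptp4a1 and Erf, each with 0.82, over 25 animals. Cdkn1a encodes the cell cycle inhibitor p21, Vgf a secreted neuropeptide precursor, Homer1 a scaffold protein of synapses with a short activity-induced form, Tpm4 a tropomyosin, Ptp4a1 a tyrosine phosphatase and Erf a repressor of the ETS family. Within the GnRH animals alone their r lay between 0.79 and 0.91, and within the placebo animals alone between 0.63 and 0.90. These genes were picked for their r over the same 25 animals, so high r in either part is no separate test. In the placebo animals alone Cdkn1a, Vgf, Tpm4, Ptp4a1 and Erf did not pass (limma, adjusted p = 0.475, 0.300, 0.641, 0.331 and 0.0865). Homer1 had r = 0.87 in those animals. In the opposite direction stood Bola3, with r = -0.81, Stoml2, with -0.76, and Mars, with -0.74, which encode an iron-sulfur cluster assembly factor, a mitochondrial inner membrane protein and the methionyl-tRNA synthetase. Their adjusted p were 0.0493, 0.0258 and 0.0223 (limma). With 1 animal left out, Bola3 passed in 6 of 25 fits, Stoml2 in 19 and Mars in 21. Without GnRH males 18 and 21, Bola3, Stoml2 and Mars did not pass (limma, adjusted p = 0.216, 0.283 and 0.218). Nor did Tpm4, Ptp4a1 and Erf (limma, adjusted p = 0.101, 0.0999 and 0.0936).

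The GnRH differences of these genes varied in size. Homer1 differed by 1.52 in females and 2.03 in males, Vgf by 0.92 and 1.15, and Cdkn1a by 0.52 and 0.48, whereas Ptp4a1 differed by 0.081 and 0.37 and Bola3 by 0.084 and 0.080. In females none of the 9 passed the threshold (limma, adjusted p between 0.135 and 0.942). In males Tpm4, with a difference of 0.52, Homer1 and Vgf passed (limma, adjusted p = 0.00115, 0.00246 and 0.0171), and the other 6 did not. Of the 5 like genes with a RefSeq window, Cdkn1a and Homer1 held the antioxidant response element core in 1 of 2 windows each and Tpm4 and Erf in their only window, beside 23 percent of all windows, and none held an AP-1 site or a cyclic AMP response element.

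**Figure D5:**
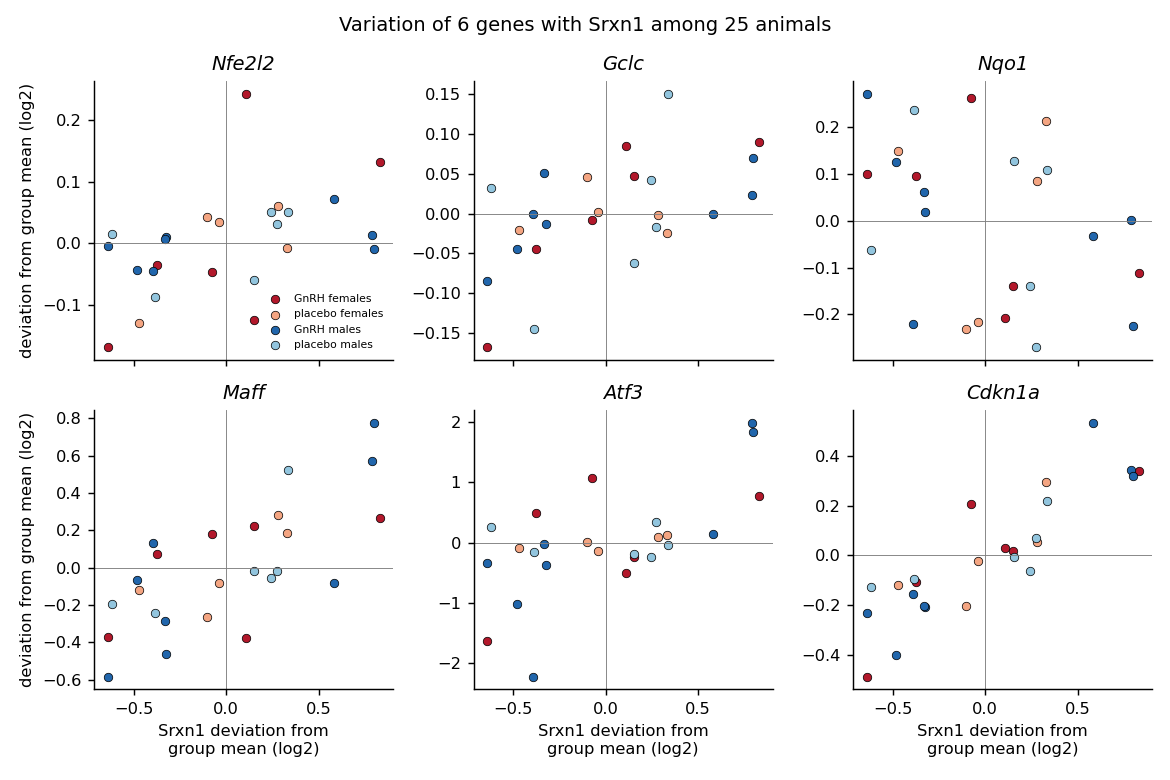
Deviation of 6 genes from their group mean (vertical axes, log2) against the deviation of Srxn1 (horizontal axes, log2) in 25 animals; colours are the 4 groups. Nfe2l2, Gclc and Nqo1 have r of 0.47, 0.55 and -0.35, and Maff, Atf3 and Cdkn1a have r of 0.72, 0.63 and 0.87.

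Cell type markers were set beside the variation of Srxn1 within groups. The list means of gonadotrope, somatotrope, lactotrope, thyrotrope, corticotrope and melanotrope, stem, endothelial, stromal, red cell and posterior lobe markers had r between -0.13 and 0.089, and macrophages -0.35. Mitochondrial transcripts had r = -0.18. Of these markers and transcripts, none varied with Srxn1 past the threshold (limma), where 0.569 percent of all genes did. In the GnRH and the placebo animals alone, several lists had r of opposite sign. For the GnRH animals r was -0.55 for gonadotropes, -0.61 for somatotropes, 0.45 for stem cells, 0.41 for stroma and 0.24 for endothelium. For the placebo animals it was 0.74 for gonadotropes, 0.72 for somatotropes, -0.62 for stem cells, -0.60 for stroma and -0.65 for endothelium. These differences were not tested.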

How the data were processed

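Polyadenylated RNA of 25 whole pituitaries was sequenced after depletion of ribosomal and globin transcripts, with RNA integrity numbers above 8.2 and a median of 9.1, per the labels' protocols. The series text speaks of fewer animals per group than the 8 that the labels place among GnRH males, and the labels were followed. The submitters' processing notes name bcl2fastq, STAR, featureCounts and mm10, with no versions among the sources used here. The authors deposited regularized log2 values, a transform known here from the name of their table, and the submitters state that the raw data were lost. The sources used here name no batch and no date.

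A mean for every combination of sex and treatment was fitted over the 25 libraries with limma 3.58.1 in R 4.3.3, with 21 residual degrees of freedom and a variance trend. Genes below a mean of 3 were dropped, and two-sided p-values of the remaining 19141 were adjusted after Benjamini and Hochberg, with a threshold of 0.05. The 10 genes were also given exact permutation tests over females. A second model added the Srxn1 value as a covariate. Correlations used deviations from group means, with two-sided permutation tests over 100000 shuffles of animals within groups. The scripts were tested on simulated data. Within a group, the labels tell the animals apart only by their numbers. The p-values judge differences, slopes and correlations against the spread between these animals within groups.

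The 10 genes, the gene lists and the tests were chosen with earlier results of these data known. Genes were named by rule: all 10, the 3 with the smallest p in females of each pathway list, the 6 most and the 3 least like Srxn1 by r, leaving out predicted genes, and Atf3. Bach1 and 7 immediate early genes were named outside this rule, after their values were seen. Gene positions come from the GENCODE annotation of GRCm38, and promoters of 8 of the 10 genes were matched in RefSeq. Alternatives were other filters and scalings, sample weights and left-out animals. Fits on GnRH or placebo animals alone and the control list without Maff were added after the data were seen.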

Additional observations from a re-analysis of the deposited data

Results flagged for a closer look

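Each of the 10 genes was screened in the 4 groups for a sample far from the others, which made 40 groups, and chance flags about 1 in 20. In Hmox1, animal 12 had the lowest value of the placebo males, 6.51, and its gap to the next animal was 0.657 of the range of the group. Without animal 12 the Hmox1 difference in males, reported as -0.0096, was -0.067. It was described without a test.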

How the results depend on the processing

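For 64 results, 2115 values were recomputed under other settings, and 1983 stayed close to the value reported. For tested results this means the same direction and side of the threshold, for counts within 1.5 times, and for untested differences a move smaller than the spread between animals. Of these untested differences 37 values changed sign, all between small values: 9 in males (Hmox1 and Slc7a11) and 28 of the difference between the sexes' effects (Txnrd1, Nqo1 and Slc7a11). No paired analysis was possible because the groups share no animal numbers. The Srxn1 difference in females lay between 0.66 and 0.96 when 1 animal was left out, with adjusted p between 0.152 and 0.577 (limma), and did not pass in any of these fits.

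Counts over all genes moved most. The 19 genes past the threshold in females were 7 without a filter, 62 with sample weights, 32 without GnRH males 18 and 21, and 4 to 67 with 1 animal left out (4 without animal 6, 67 without animal 10). The 95 in males were 42, 239 and 38 under the same 3 settings and 46 to 153 with 1 animal left out (46 without animal 14, 153 without animal 19). The 109 genes that varied with Srxn1 were 57, 294 and 4 under them, 21 in the placebo animals alone, and 38 to 167 with 1 animal left out. Of the 10 genes, 0 to 1 passed in females with 1 animal left out, the 1 being Gclc without animal 10. Between sexes within GnRH, 8 to 17 genes passed with 1 animal left out. Of the 61 pathway genes, 2 passed in males with sample weights and 0 to 1 with 1 animal left out. The 1 of them that varied with Srxn1 became 2 with sample weights, 0 without males 18 and 21, 0 in the GnRH or the placebo animals alone, and 0 to 2 with 1 animal left out.

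Small differences changed sign. In males Hmox1 was 0.0073 with sample weights and -0.067 to 0.018 with 1 animal left out, and Slc7a11 was -0.0086 to 0.045. In females Nfe2l2 was -0.034 with sample weights and -0.038 to 0.044 with 1 animal left out, Prdx1 was -0.0057 with quantile normalization and -0.026 to 0.049 with 1 animal left out, and Slc7a11 was -0.052 to 0.10. The r with Srxn1 was -0.099 for Txnrd1 in the placebo animals alone, 0.11 for Hmox1 in the GnRH animals alone and -0.13 to 0.053 with 1 animal left out, and -0.18 for the immediate early mean in the placebo animals alone. Atf3 passed with a mean of at least 6 (limma, adjusted p = 0.0492) and with sample weights (limma, adjusted p = 0.0250). With 1 animal left out its r was 0.55 to 0.68, and it did not pass in 18 of 25 fits. Adjusted p in these fits lay between 0.0220 and 0.238 (limma), and r was lowest without animal 18. The cause of these changes was not tested, and depth limits cannot be given without counts.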
